A study of Mus musculus with 20 samples.

Results

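Lactoferrin (Ltf), kappa-casein (Csn3), Wfdc18, Clca3a2, Tmprss2, Muc16, Aldh1a3, Cldn4 and Tspan8 are 9 genes of glandular secretory and mucosal epithelium, and their signals were followed in mouse flank tissue through a time course of Ad-VEGF-A164. They were 9 of the 18193 genes that the arrays represented. Each gene was read from the probe sets annotated to its symbol alone, 20 in all, and the probe set with the highest mean signal gave the gene's value, with the others as a check. The genes were listed with their levels on these arrays known, and their main probe sets were chosen by mean signal over the same arrays. Their levels and changes are therefore given as a description, and no p-value is attached to them.

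Ad-VEGF-A164 is an adenovirus carrying the VEGF-A164 isoform of the vessel growth factor VEGF-A, which infected cells then release. Total RNA of flank tissue was hybridised to 20 Mouse Genome 430 2.0 arrays. By the source names, 5 arrays were of control flank taken on day 0 (A to E), 4 were of flank taken 5 days after the vector (day 5, B to E), 5 were of day 20 and 5 were of day 60 (A to E each). A further array carried a day 5 title and the source name of the day 0 control, and it was left out of all comparisons. The series follows tissue taken at set times after a vector that carries a vessel growth factor. The sources used here give no strain, sex or age of the mice and no dose. No arm with an empty virus is named, and all controls are of day 0, so effects of VEGF-A, of the virus, of injecting it and of elapsed time cannot be told apart. Nothing in the labels says that the arrays came from separate mice, so the spread between arrays may be technical. In whole tissue, fewer cells of a type and less RNA per cell cannot be told apart.

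Glandular epithelium is built of luminal cells, which make and release the secretion, resting on contractile basal cells. Luminal cells are held together by simple keratins and tight junctions and, in the mammary gland, are governed by the oestrogen and progesterone receptors and by Foxa1, Gata3 and Elf5. Milk proteins such as caseins and lactoferrin are their best known products, while membrane mucins, chloride channel regulators and surface proteases belong to the wet mucosal surfaces of many organs. The mouse mammary glands lie in fat under the skin of the trunk.

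The deposited signals had already been scaled, which sets the overall signal of an array. The median signal of an array was 420.5 to 485.5 on day 5, 451.6 to 464.6 on day 20, 444.8 to 504.2 on day 60 and 405.9 to 569.3 in controls. The probe set for Vegfa with the highest mean had signals of 3927 to 9410.0 on day 5, 7128 to 13514 on day 20 and 219 to 1076 on day 60, against 66.5 to 467 in controls. The other Vegfa probe set ran the opposite way, at 640.3 to 797 on day 5, 851 to 1177 on day 20 and 1012 to 2325 on day 60, against 1344 to 2629 in controls. The ratio of 3' to 5' Actb probe sets, which rises where RNA is degraded, was 2.95 to 7.31 on day 5 and 2.6 to 7.56 on day 20, against 4.15 to 9.12 in controls. On day 60 it was 13.97 on array A, 10.4 on array B and 10.89 on array D, and it was 4.32 and 4.52 on arrays C and E. The same ratio for Gapdh was 7.72 on day 60 A, 2.48 on B, 1.82 on C, 3.62 on D and 1.68 on E, and 1.57 to 2.71 on all arrays of the other groups. The labelled tissue held transcripts of simple epithelium in controls, where the luminal keratin Krt8 had signals of 8499 to 13850.2 and its partner Krt18 of 7214 to 11570.5.

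Of the 9 genes, 6 were lower on day 5 than in controls, 7 on day 20 and 5 on day 60, where lower means a Benjamini-Hochberg adjusted p under 0.05 in a limma fit over all 13594 genes with a mean signal of at least 300. Over all those genes the shares called lower were 17.5% on day 5, 14.5% on day 20 and 0.765% on day 60. None of the 9 was called higher than controls at any of these times by limma, where the shares of all tested genes called higher were 16.8%, 15.6% and 0.368%, and none was higher at an unadjusted p under 0.05. The median log2 change of the 9 genes was -2.64 at day 5, -2.87 at day 20 and -1.71 at day 60, while that of all tested genes was -0.07, -0.06 and 0.01. These counts and medians describe a list that was drawn up with the levels known. All 9 main probe sets passed the minimum of 300, which applied to the mean over all assigned arrays, controls included. Muc16 passed narrowly, at 320.8. Its group means were 516 in controls, 317 on day 5 and 319 on day 20, and that of day 60, 130, was under the minimum. The group means of Clca3a2 on days 5 and 20, 262 and 168, were also under it, against 10879 in controls and 1602 on day 60. Changes were computed as log2(signal + 100), so those of weak signals are understated, and they are given with their standard error (SE).

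**Figure D1:**
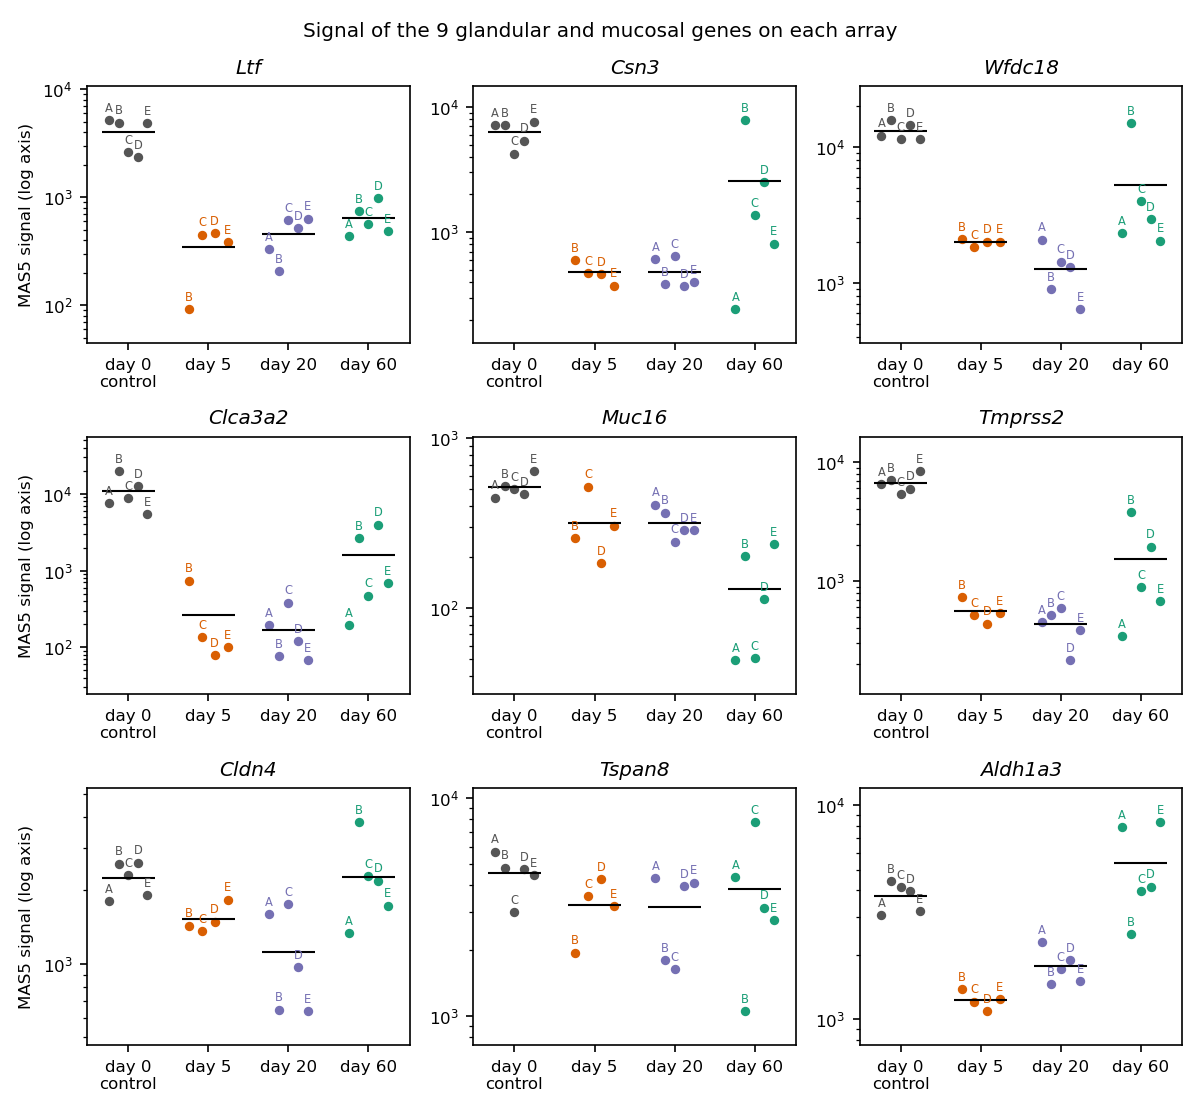
MAS5 signal (log axis) of the 9 genes on the arrays of day 0 control, day 5, day 20 and day 60. Each point is 1 array with its letter and the line is the group mean. Ltf, Csn3, Wfdc18, Clca3a2 and Tmprss2 are low on every array of days 5 and 20, and on day 60 array B stands highest for Csn3, Wfdc18 and Tmprss2.

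The transcription start regions of Ltf, Wfdc18 and Tmprss2 are shown because these 3 genes were among those called lower than controls at all 3 times. Each is 300 bases, from 250 before to 50 after the annotated start, taken from RefSeq on build GRCm38.p6 and written 5′ to 3′ on the gene's strand. The windows are chr9:111019042-111019341 (plus strand) for Ltf, chr11:83708754-83709053 (plus strand) for Wfdc18 and chr16:97611146-97611445 (minus strand) for Tmprss2. Capitals mark AGGAAG or its reverse complement, the core of the ETS site type bound by Elf5 and Ehf, and in Wfdc18 also a TATA box.
Ltf: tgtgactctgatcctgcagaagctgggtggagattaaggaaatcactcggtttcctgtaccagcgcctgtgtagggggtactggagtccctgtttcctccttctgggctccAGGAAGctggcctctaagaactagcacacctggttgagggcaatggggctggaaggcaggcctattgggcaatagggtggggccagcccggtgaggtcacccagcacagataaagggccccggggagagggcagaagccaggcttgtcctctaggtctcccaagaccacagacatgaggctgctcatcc
Wfdc18: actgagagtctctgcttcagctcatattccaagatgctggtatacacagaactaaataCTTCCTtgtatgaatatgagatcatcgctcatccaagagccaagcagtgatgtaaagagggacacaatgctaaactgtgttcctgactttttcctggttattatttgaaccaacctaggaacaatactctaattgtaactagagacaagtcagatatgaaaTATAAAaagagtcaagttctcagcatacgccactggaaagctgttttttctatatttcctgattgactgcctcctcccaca
Tmprss2: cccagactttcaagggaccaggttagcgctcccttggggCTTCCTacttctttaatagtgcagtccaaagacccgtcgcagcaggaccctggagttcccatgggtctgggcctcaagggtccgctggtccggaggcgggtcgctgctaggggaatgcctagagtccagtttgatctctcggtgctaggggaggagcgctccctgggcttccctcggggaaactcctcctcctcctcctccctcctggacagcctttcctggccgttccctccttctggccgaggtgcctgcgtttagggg

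Promoter windows of 6 of the 9 genes were searched. AGGAAG, on either strand, lay in 4 of these 6, at position -139 from the start in Ltf, -192 in Wfdc18, -211 in Tmprss2 and 30 in Muc16. It lay in 35.4% of all 32851 promoter windows of the same length. The TATA box, searched as TATAAA on the gene's strand, lay at -31 in Wfdc18 and in 8.32% of all windows. A forkhead motif (TGTTTAC or TATTTAC, both strands), the type bound by Foxa1, lay at -18 in Tspan8 and in 6.54% of all windows. The steroid receptor half-site TGTTCT (both strands) lay at -41 in Muc16 and in 19% of all windows. The STAT motif TTCNNNGAA was in none of the 6 windows and in 8.3% of all. None of these motifs overlapped another within a window. Base composition varied widely, with a GC content of 39.0% in Wfdc18, 58.7% in Ltf and 62.3% in Tmprss2.

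Ltf encodes lactoferrin, an iron-binding protein of milk, other secretions and neutrophil granules. Its signal was 92.2, 448, 461 and 382 on day 5 arrays B to E, against 5173, 4894, 2622, 2352 and 4847 on control arrays A to E. It was 329, 208, 609, 517 and 633 on day 20 and 436, 745, 562, 976 and 482 on day 60. Every treated array lay below every control array, and day 5 B was the lowest of all. The log2 change from control was -3.24 ± 0.34 (SE) on day 5, -2.87 ± 0.32 on day 20 and -2.44 ± 0.32 on day 60, or 9.42-fold, 7.29-fold and 5.41-fold lower. On day 60 Ltf was at 11.0% to 24.5% of the control mean, with no array near the control range. Its level on day 60 was not called different from that on day 20, at 0.43 ± 0.32.

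Csn3 encodes kappa-casein, the casein that keeps milk micelles in suspension. Its signal was 601, 471, 464 and 374 on day 5, against 7132, 7165, 4225, 5371 and 7638 in controls, a log2 change of -3.45 ± 0.55. On day 20 it was 608, 386, 644, 371 and 399.9, a change of -3.46 ± 0.52. Every array of both days lay far under the lowest control. On day 60 the arrays spread from 244 on A and 807 on E through 1369 on C and 2516 on D to 7856 on B. Array B was above every control while array A was below every day 5 and day 20 array. The log2 change on day 60 of -1.996 ± 0.52 was not called, and without array B it was -2.58 and called lower. The other Csn3 probe set was under the minimum of 300.

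Wfdc18 encodes a small secreted protein of the whey acidic protein family. Its signal was 2078, 1816, 1998 and 2003 on day 5, against 12021, 15678, 11359, 14318 and 11290.2 in controls. The day 20 arrays had 2074, 895, 1429, 1293 and 639.8. The day 5 arrays lay close together, at 1974 ± 111 (SD, n = 4), and the log2 change was -2.64 ± 0.41 on day 5 and -3.34 ± 0.38 on day 20. The day 60 arrays had 2316, 14921, 3962, 2928 and 2028, with array B inside the control range and the other arrays below it. The day 60 change of -1.71 ± 0.38 was called lower. That call was lost without any 1 of control arrays A, C, D or E, day 5 arrays C or E, day 20 array D or day 60 arrays A, D or E, at changes of -1.76 to -1.49.

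Clca3a2 encodes a chloride channel accessory protein, a member of a family of secreted and membrane regulators known from mucus-making epithelia. Its signal was 736, 134, 79 and 100.3 on day 5, against 7518, 19946, 8869, 12558 and 5504 in controls. Day 20 arrays had 193, 76.9, 383, 119 and 68.2. These were the largest changes among the 9 genes at both times, -5.10 ± 0.63 and -5.33 ± 0.60 on the log2 scale, or 34.4-fold and 40.2-fold lower. By day 60 its signal was 195, 2669, 473, 3983 and 691, still below every control, with a change of -3.20 ± 0.60. Arrays B and D were the highest of day 60 and array A the lowest. Clca3a2 has a near copy, Clca3a1, and a probe set annotated to both was not used. Part of this signal may still come from the copy. How specific the probe sets of both genes are was not tested. In the probe set chosen for Clca3a1 itself the change was smaller, at -1.38 ± 0.25 on day 5 (limma adjusted p = 0.00036) and -0.76 ± 0.24 on day 60 (adjusted p = 0.116).

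Tmprss2 encodes a membrane-anchored serine protease of the surface of prostate, airway and gut epithelium. Its signal was 730.3, 517, 439.8 and 536 on day 5, against 6516, 7050.2, 5405, 5992 and 8410.1 in controls. On day 20 it was 449, 518, 595, 217 and 385, and on day 60 it was 344, 3796, 888, 1944 and 679.8. All treated arrays lay below all controls, and on day 60 array B, at 56.9% of the control mean, came closest to them. The log2 change was -3.37 ± 0.42 on day 5, -3.70 ± 0.40 on day 20 and -2.46 ± 0.40 on day 60. A further Tmprss2 probe set had 379.9 to 465 on day 5, 259.5 to 376 on day 20 and 343 to 2325 on day 60, against 3112 to 5632 in controls, which gave the same order of arrays B and D above the rest on day 60.

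Aldh1a3 encodes a retinaldehyde dehydrogenase, which makes retinoic acid from retinal. Its signal was 1378, 1207, 1090.3 and 1241 on day 5, against 3067, 4415, 4151, 3967 and 3207 in controls, a change of -1.53 ± 0.26. It was 2289, 1459, 1712, 1883 and 1501 on day 20, a change of -1.05 ± 0.24. Each day 20 array lay above each day 5 array and below each control. The day 60 signals were 7881, 2495, 3979.5, 4160.0 and 8354, so that arrays A and E were above every control, at 210% and 222% of the control mean, while array B, at 66.3%, was below every control. The change of 0.38 ± 0.24 was not called. Arrays A and E were the lowest of day 60 for Csn3 and Tmprss2.

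Cldn4 encodes claudin 4, a tight junction protein. Its signal was 1435, 1364, 1488 and 1831 on day 5, against 1803, 2582, 2313, 2606 and 1911 in controls. On day 20 it was 1596, 647, 1758, 966 and 639, and on day 60 it was 1339, 3824, 2287, 2198 and 1730.4. Day 5 overlapped the controls by a single array, E, and the change of -0.52 ± 0.28 was not called. The day 20 arrays lay below all controls, with a change of -1.03 ± 0.26 that was called lower. Day 60 lay on both sides of the control range, at -0.05 ± 0.26.

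Muc16 encodes a very large membrane mucin that covers wet epithelia, known in humans as the CA125 antigen. Its signals were low, at 259, 519, 184 and 307 on day 5, against 447, 522, 502, 467 and 642 in controls. They were 407, 365, 246, 287 and 289 on day 20 and 49.5, 202, 50.6, 113 and 237 on day 60. The order of groups differed from that of the other members, since day 60 was the lowest, with no array reaching the lowest day 20 array. The changes of -0.61 ± 0.26 on day 5 and -0.56 ± 0.25 on day 20 were not called, and the change of -1.49 ± 0.25 on day 60 was called lower. Without day 5 array C, whose signal was inside the control range, the day 5 change was -0.82 and called lower.

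Tspan8 encodes a tetraspanin of epithelial membranes. Its signal was 1949, 3546, 4258 and 3183 on day 5 and 4296, 1803, 1633, 3953 and 4093 on day 20, against 5692, 4801, 2989.7, 4717 and 4416 in controls. On day 60 it ran from 1050.3 on array B to 7782 on array C. All groups overlapped, and none of the changes, -0.49 ± 0.41 on day 5, -0.59 ± 0.39 on day 20 and -0.47 ± 0.39 on day 60, was called. In 3 of its 4 further probe sets, each with a mean of at least 300, every array of days 5 and 20 lay below every control. In a fit over all probe sets, 1 of these passed on both days, at -0.76 ± 0.18 on day 5 and -0.78 ± 0.17 on day 20, and 1 on day 5, at -0.90 ± 0.23. In the main probe set Tspan8 was lowest of day 60 on array B, where Csn3, Wfdc18, Tmprss2 and Cldn4 were highest.

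**Figure D2:**
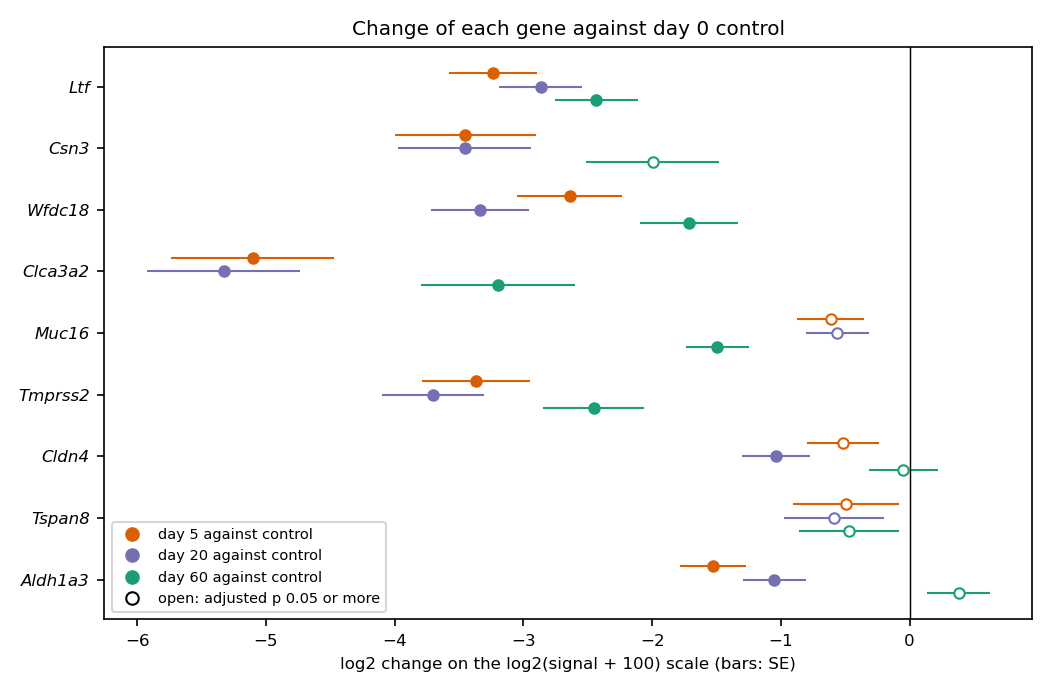
Log2 change (horizontal axis, log2(signal + 100) scale) of each gene on days 5, 20 and 60 against day 0 control, with bars of 1 standard error. Filled points passed an adjusted p of 0.05 in the limma fit. Clca3a2 lies farthest left on days 5 and 20, at -5.10 and -5.33, and Muc16 has its largest change on day 60, at -1.49.

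Further probe sets with a mean of at least 300 existed for Clca3a2, Tmprss2 and Tspan8, 6 in all, and each of the 6 had the same sign of change as the main probe set on days 5, 20 and 60. The arrays of treated and control flank did not overlap, with the treated arrays lower, for 6 members on day 5, 8 on day 20 and 4 on day 60. Over all tested genes such separation was seen in 14.8%, 9.63% and 1.38%. The 4 members of day 60 were Ltf, Clca3a2, Tmprss2 and Muc16. The day 60 calls depended on the arrays in the fit: with only the day 60 and control arrays in it, Ltf was the 1 member called lower, and with the array of conflicting labels counted as a control, 0 were. On that array every member lay below the lowest control array, so counting it there widened the spread of the controls.

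No member was called different between days 20 and 5. By limma 0 of 9 were called higher and 0 lower on day 20, against 3.05% and 2.25% of all tested genes, and at an unadjusted p under 0.05 the counts were again 0 and 0. The largest of the 9 differences was that of Wfdc18, at -0.70 ± 0.41 on the log2 scale. The arrays of both days did not overlap for 1 member, Aldh1a3, higher on day 20 at 0.48 ± 0.26, and for no member lower, against 6.41% and 5.93% of all tested genes.

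Of the 9 genes, 6 were called higher on day 60 than on day 20 (11% of all tested genes) and 1, Muc16, lower (11.2%). The log2 differences were 2.14 ± 0.60 for Clca3a2, 1.62 ± 0.38 for Wfdc18, 1.46 ± 0.52 for Csn3, 1.43 ± 0.24 for Aldh1a3, 1.25 ± 0.40 for Tmprss2 and 0.99 ± 0.26 for Cldn4. Muc16 was at -0.93 ± 0.25, and Ltf and Tspan8, at 0.43 ± 0.32 and 0.12 ± 0.39, were not called. Among the 9, Aldh1a3 alone had all its day 60 arrays above all its day 20 arrays, which 7.03% of all tested genes did, and Muc16 alone had them all below (8.26%). Some calls rested on single arrays. The call of Csn3 was lost without any 1 of the control, day 5 or day 20 arrays or of day 60 arrays B, C or D, and its difference was 0.88 without day 60 B. That of Tmprss2 was lost without day 20 D (1.07) or E (1.23) or day 60 B (0.83) or D (1.06). Against day 5, 2 members were called higher on day 60, Clca3a2 at 1.91 ± 0.63 and Aldh1a3 at 1.91 ± 0.26 (12.2% of all tested genes), and Muc16 was lower, at -0.88 ± 0.26 (12.2%). All day 60 arrays lay above all day 5 arrays for Aldh1a3 alone (9.81% of all tested genes) and below them for no member (10.3%). The Clca3a2 call was lost without day 5 C (1.81), D (1.68) or E (1.73) or day 60 B (1.57) or D (1.43), and that of Muc16 without day 5 C (-0.67). Csn3 became called without day 60 A (2.004) or E (1.65), Wfdc18 without day 60 E (1.15) and Tmprss2 without day 60 A (1.28).

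In most members the 5 day 60 arrays differed from each other more than the arrays of the other groups did. The ratio of the highest to the lowest array within a group, as a median over the 9 genes, was 1.66 on day 5, 2.74 on day 20 and 7.36 on day 60, against 1.56 in controls. On day 60 it reached 32.2, for Csn3. Ltf was an exception, at 2.24 on day 60 against 5.00 on day 5 and 3.05 on day 20. Array B had Csn3 at 125%, Wfdc18 at 115% and Cldn4 at 170% of the control mean, but Ltf at 18.7% and Clca3a2 at 24.5%. Array D came next, with Csn3 at 39.9%, Clca3a2 at 36.6% and Tmprss2 at 29.1%. Array A had Csn3 at 3.86%, Clca3a2 at 1.79% and Tmprss2 at 5.15%, with Csn3 below every array of days 5 and 20 and the others within their range. The members above all day 20 arrays numbered 7 on each of B, C and D, 4 on E and 3 on A.

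The arrays of highest Actb ratio, A, B and D, included both the array of lowest and the array of highest Csn3 signal. Array A, of lowest Csn3, also had the highest Gapdh ratio, 7.72. Without these 3 arrays, an alternative chosen after the data were seen, 3 of 9 members were called higher on day 60 than on day 20. The calls of Clca3a2 (1.45), Tmprss2 (0.77) and Cldn4 (0.89) were lost, as was the lower call of Muc16 (-0.88). Against day 5 the calls of Clca3a2 (1.22) and Muc16 (-0.83) were lost, and Csn3 (1.01) became called higher. In a fit of only the day 60 and day 20 arrays the calls of Csn3, Tmprss2 and Cldn4 were lost. With the smaller change of both Clca3a2 probe sets, its difference was 0.95 and not called. The part of RNA quality in the member levels was otherwise not tested.

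**Figure D3:**
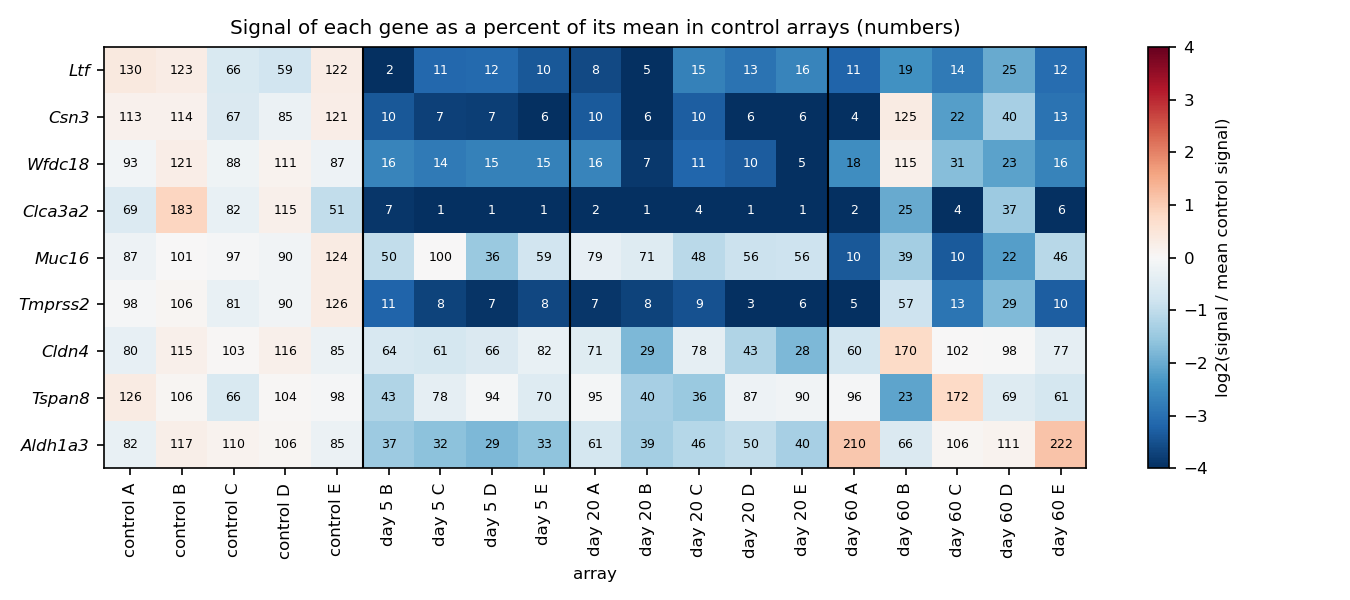
Signal of each gene on each array as a percent of its mean in controls (numbers), coloured by the log2 of that ratio, with arrays in order of time. Day 60 B is at 125% for Csn3 and 115% for Wfdc18, day 60 A is at 3.86% for Csn3, and Ltf stays at or under 24.5% on all day 60 arrays.

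Other genes of the same tissue compartment were counted from lists that were drawn up with earlier results of these data known, so their counts and adjusted p-values are no independent support. The shares of all tested genes called lower and higher, to set beside these counts, were 17.5% and 16.8% on day 5. They were 14.5% and 15.6% on day 20 and 0.765% and 0.368% on day 60. Among luminal transcription factors and receptors, 11 of 14 tested genes fell on day 5, 13 on day 20 and 1 (Foxa1) on day 60, with median log2 changes of -1.15, -1.69 and -0.27. The progesterone receptor Pgr fell by 4.44 ± 0.52 on day 5 (limma adjusted p = 3.47e-06), and on day 60 its change was -1.04 ± 0.49 (adjusted p = 0.31). The oestrogen receptor Esr1 fell by 1.504 ± 0.19 on day 5 (adjusted p = 7.81e-06). Among simple epithelial keratins and junction genes, 10 of 15 fell on day 5, 12 on day 20 and 1 (Prom1) on day 60. Among the most strongly expressed of these genes Esrp1, at -1.02 ± 0.47 (adjusted p = 0.101), and Perp, at -0.23 ± 0.56 (adjusted p = 0.781), were not called on day 5. Krt8 fell by 4.27 ± 0.65 on day 5 (adjusted p = 5.21e-05), and the adhesion protein Epcam fell by 2.68 ± 0.38 on day 20 (adjusted p = 3.19e-05). Against day 20, 10 of the luminal genes and 12 of the simple epithelial genes rose on day 60. Over all context lists 11 genes were called on day 60 against control, and this count was 0 in a fit of both groups only and 1 without control array A or E.

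The other milk genes were mixed. Of 11 tested, 4 fell on day 5 (Csn1s1, Btn1a1, Muc15 and Slc34a2) and 5 on day 20, with Xdh added, while Btn1a1 alone fell on day 60. The alpha casein Csn1s1 had signals of 91.1 to 157 at day 5, 25.6 to 231 at day 20 and 65.6 to 1385 at day 60, against 659.5 to 2482 in controls. The major milk genes Csn2 (beta-casein) and Wap had low signals in controls, 446 to 542 and 246 to 553, and neither was called at days 5, 20 or 60 against controls. Mfge8, a milk fat globule protein that many other cells make, was at 0.30 ± 0.21 on day 5 (adjusted p = 0.289).

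Of 23 mucins and mucosal secretory genes with a probe set, only 10 reached the minimum mean signal and were tested. Among these 10, 4 fell and 1 rose on day 5, and the counts on day 20 were the same. The one that rose was Clca2, a relative of Clca3a2, by 3.496 ± 0.25 on day 5 (adjusted p = 1.23e-08) and by 1.97 ± 0.23 on day 20, also called. The water channel Aqp5 and the chloride carrier Slc12a2 were the 2 genes of this list that fell on day 60, Slc12a2 by 0.99 ± 0.20 (adjusted p = 0.0206). The trefoil factor Tff1 was at -0.12 ± 0.18 on day 5 (adjusted p = 0.63). Among WAP-domain and antimicrobial proteins, where Wfdc18 belongs, 3 of 13 fell on day 5 (Wfdc2, Wfdc21 and Lcn2) and the lysozymes Lyz1 and Lyz2, also products of macrophages, rose, while the defensin Defb1 was at -0.38 ± 0.63 (adjusted p = 0.678). These day 5 counts were near the shares of all tested genes, 17.5% lower and 16.8% higher. On day 20 the counts were 5 fallen and 2 risen, and on day 60 limma called none, with 3 lower and 3 higher at an unadjusted p under 0.05.

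Membrane serine proteases and their inhibitors, the relatives and regulators of Tmprss2, had 3 of 8 lower on day 5 and 6 on day 20. On day 60 limma called none of the 8, and 1 was lower at an unadjusted p under 0.05. The inhibitor Spint1, at -0.42 ± 0.23 (adjusted p = 0.164), was among the 5 not called on day 5. The inhibitor Spint2 fell by 1.87 ± 0.31 on day 20 (adjusted p = 0.000139), and the protease St14 (matriptase) was 2.65 ± 0.36 higher on day 60 than on day 20 (adjusted p = 3.27e-05). In the retinoic acid pathway of Aldh1a3, 6 of 12 fell on day 5, and 5 fell and 1 (Cyp26b1, which breaks retinoic acid down) rose on day 20. The retinol carrier Rbp4 fell by 2.95 ± 0.42 on day 20 (adjusted p = 3.28e-05), and Aldh1a1, another enzyme of the same step as Aldh1a3, fell by 0.85 ± 0.29 on day 5 (adjusted p = 0.0301). Rarres2 was at -0.08 ± 0.22 on day 5 (adjusted p = 0.817). Salivary and lacrimal genes, markers of another gland type, had 2 of 5 lower on days 5 and 20, Amy1 and Smr2, and Amy1 fell by 3.58 ± 0.46 on day 5 (adjusted p = 9.43e-06). Car6, at -0.205 ± 0.82 (adjusted p = 0.872), and Klk1, at -0.32 ± 0.26 (adjusted p = 0.372), were not called on day 5.

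**Figure D4:**
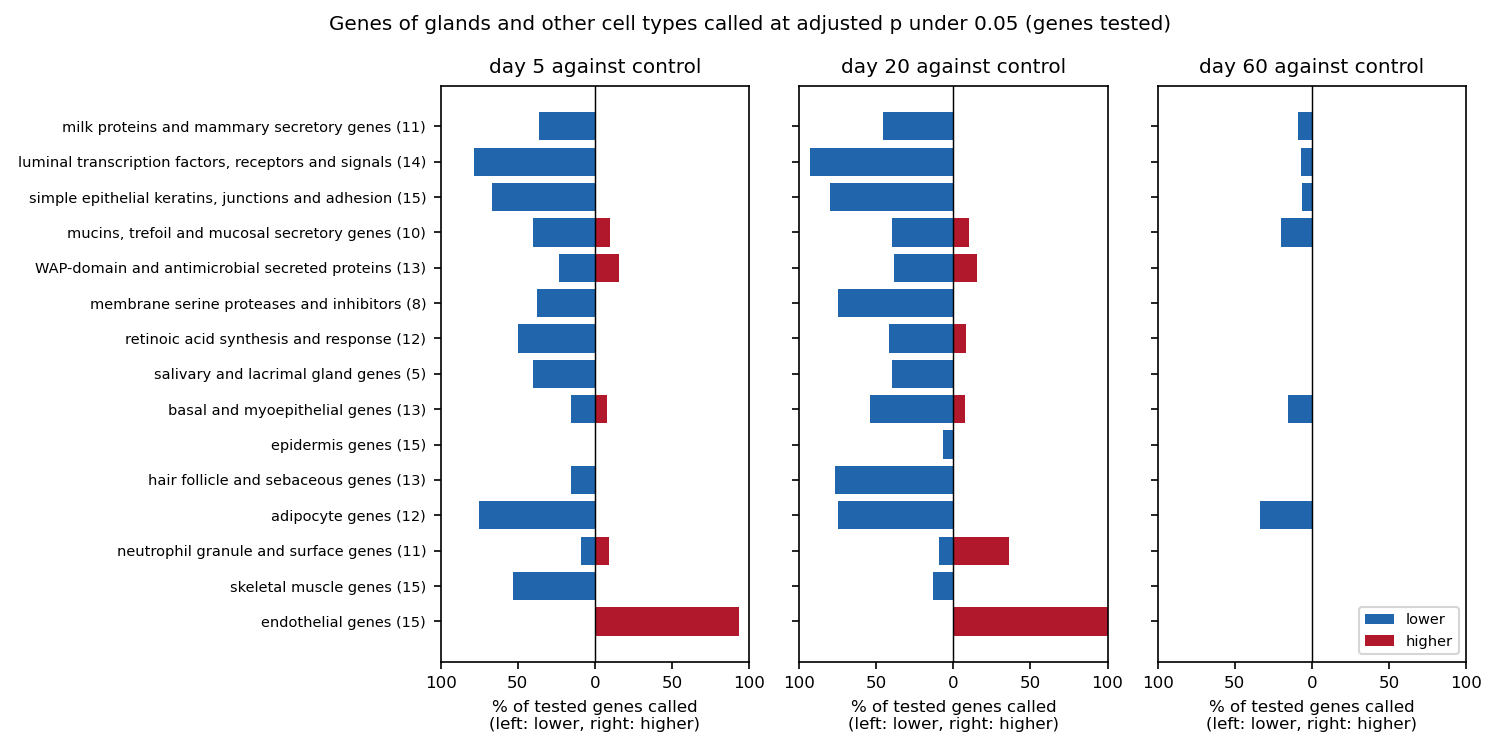
Percent of the tested genes of each list called lower (left) or higher (right) on days 5, 20 and 60 against control, with the number tested in brackets. Luminal, simple epithelial and adipocyte lists were mostly lower on days 5 and 20, and endothelial genes were higher, 14 and 15 of 15. Hair follicle (10 of 13), membrane protease (6 of 8) and basal (7 of 13) lists were also mostly lower on day 20, and skeletal muscle (8 of 15) on day 5.

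Markers of other tissue differed in how far they moved with the members. Of 12 tested adipocyte genes 9 fell on each of days 5 and 20 and 4 on day 60, and 6 were higher on day 60 than on day 20. Their mean log2 signal was 11.50 to 11.85 on day 5, 10.97 to 11.44 on day 20 and 11.04 to 12.75 on day 60, against 12.86 to 14.01 in controls. On day 60 it was lowest on array A and highest on array B, the same arrays as for Csn3. Fabp4, at -0.51 ± 0.28 (adjusted p = 0.168), and Cd36, at -0.33 ± 0.33 (adjusted p = 0.46), were not called on day 5. Adiponectin (Adipoq) was at 633 on day 60 A and 38909.8 on B, against 21871 to 61847 in controls. Of 13 hair follicle and sebaceous genes 2 fell on day 5 and 10 on day 20, and 9 were higher on day 60 than on day 20. Their mean log2 signal on day 20 was 10.23 on array B and 9.88 on E, but 11.69 to 11.88 on A, C and D, against 11.82 to 13.04 in controls. Arrays B and E were also the lowest of day 20 for Wfdc18 and Cldn4, while Ltf was highest of day 20 on E. Of all tested genes 17.5% were called lower on day 5 and 14.5% on day 20, and 11% were higher on day 60 than on day 20. A count of 2 of 13 on day 5 is near that share. Of 15 epidermis genes none was called on day 5 by limma (1 lower at an unadjusted p under 0.05) and 1, Calml3, fell on day 20. Sbsn, Dsg1a and Krt1 were at -0.60 ± 0.60, -0.74 ± 0.55 and -1.86 ± 1.14 on day 5. Of 13 basal and myoepithelial genes 2 fell on day 5 and 7 on day 20, and Itga6, which endothelium also makes, rose by 1.96 ± 0.18 on day 5 (adjusted p = 2.99e-07). Skeletal muscle had 8 of 15 lower on day 5 and 2 on day 20, and none was higher on day 60 than on day 20 by limma, nor at an unadjusted p under 0.05. Its mean log2 signal on day 60 ran from 12.89 on array B, the array of highest Csn3, Wfdc18 and Tmprss2, to 16.51 on C. The part of these tissues in the member levels was not tested.

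Because neutrophils also store lactoferrin, their genes were set beside Ltf. Of 11 tested, 1 fell and 1 rose on day 5, and 1 fell and 4 rose on day 20. The shares of all tested genes were 17.5% lower and 16.8% higher on day 5, and 14.5% and 15.6% on day 20. The gene that fell was Lcn2, which epithelium also makes, with a log2 change of -3.125 ± 0.74 at day 5 (adjusted p = 0.003) and -4.28 ± 0.70 at day 20, also called. S100a9 rose by 1.93 ± 0.42 on day 20 (adjusted p = 0.00175). The granule gene Ngp had signals of 573 to 2164 on day 5 and 741 to 1359 on day 20, against 446 to 1129 in controls. Granule genes below the minimum for testing differed among themselves. Camp had 62.6 to 938 on day 5 and 33.2 to 179 on day 20, against 16.5 to 62.8 in controls. Prtn3 had 162 to 367 on day 5 and 45.1 to 370.3 on day 20, against 232 to 676 in controls, and Elane had 61.9 to 212 and 69.3 to 198, against 83.5 to 282. The mean log2 signal of the neutrophil list was 9.44 to 10.26 on day 5, 9.25 to 10.25 on day 20 and 9.37 to 10.18 on day 60, against 9.55 to 10.02 in controls. No tested gene of the list other than Lcn2 was called lower on day 5 or day 20. The part of neutrophils in the Ltf level was not tested.

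The genes whose signals followed the mean of the 9 members most closely over the 19 arrays were Rasef (Pearson r = 0.953), Aldoc (0.952), Foxa1 (0.950), Dgat2 (0.948) and Aqp5 (0.942). Prom1 and B3galt2 (0.941 each), Grik3 (0.938), Krt18 (0.936) and Mme (0.934) came next. The arrays share the group differences, so these values are a description. Members differed in how well they followed their own mean, at 0.952 for Tmprss2, 0.949 for Clca3a2, 0.945 for Wfdc18, 0.939 for Csn3 and 0.915 for Ltf, but 0.714 for Cldn4, 0.549 for Aldh1a3, 0.404 for Muc16 and 0.306 for Tspan8. Foxa1 had signals of 10.6 to 246 on day 5, 23.8 to 92.7 on day 20 and 197, 5384, 749.8, 3355 and 984 on day 60 arrays A to E, against 4982 to 10916 in controls. Arrays B and D again stood above the others on day 60.

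Each member is part of that mean. With each group's mean taken away, so that only differences within groups remained, Csn3 (r = 0.866), Cldn4 (0.816), Tmprss2 (0.770), Wfdc18 (0.760) and Clca3a2 (0.730) followed the members' mean. Muc16 (0.463) and Ltf (0.418) did so less, and Tspan8 (-0.329) and Aldh1a3 (-0.434) ran opposite to it. The other genes nearest to the mean on this scale were Kcnk1 (0.913), Pdzk1ip1 (0.898), Nipal4 (0.845), Wwc1 (0.844) and Aldoc (0.844). By the calls against control, Ltf, Wfdc18, Clca3a2 and Tmprss2 were lower at all 3 times, Csn3 and Aldh1a3 on days 5 and 20, Cldn4 on day 20, Muc16 on day 60, and Tspan8, in its main probe set, at none.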

How the data were processed

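RNA of 20 flank samples was measured on Affymetrix Mouse Genome 430 2.0 arrays. The authors deposited linear intensity values (MAS5 signals), one for every probe set on every array. They were background corrected and scaled with a factor of 1500, per the labels, by MAS5 in GCOS 1.3, per the submitters' processing notes. Nothing further was normalized.

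Groups came from the source names. 1 array with conflicting title and source name entered alternatives only. No 2 arrays held identical values. The precision is limited by the number of arrays.

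Of 45101 probe sets, 34958 had 1 gene symbol in the platform annotation, 932 had several and 9211 had none. Symbols were updated through gene identifiers, and 34754 matched. 1 probe set naming Clca3a2 and Clca3a1 was left out. For each of 18193 genes the probe set of highest mean over the 19 assigned arrays was kept. Tests took in the 13594 genes whose mean reached 300 and used R 4.3.3 and limma 3.58.1: log2(signal + 100), all 4 groups in 1 fit, eBayes with a trend, Benjamini-Hochberg adjustment over all tested genes, called at an adjusted p under 0.05. The fit was tested on simulated data.

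The 9 members and the context lists were chosen with earlier results of these data known. Genes named from a context list are by rule among its 4 of highest mean signal, not all of which are printed, and beyond those the members of counts of 5 or fewer, Csn1s1, Csn2, Wap, Ngp, Camp, Prtn3, Elane and genes shown for likeness, named after their values were seen. Likeness was the Pearson correlation of log2(signal + 100) with the mean of the members' scaled values. Alternatives covered the pseudocount, minimum signal, normalization, eBayes without a trend, array weights, the groups in the fit, the probe set rule, the title letter as a replicate block, the placing of the conflicting array, each array left out and, added after the data were seen, day 60 arrays of high Actb ratio left out. Promoter sequences are from RefSeq on GRCm38.p6, for 6 of the 9 members. Those of the others are not reported here.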

Additional observations from a re-analysis of the deposited data

Results flagged for a closer look

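Among the 36 sets of arrays formed by 9 genes in 4 groups, 1 held an array far from the others of its group by Dixon's criterion. It was Ltf on day 5, where array B had a signal of 92.2 and the nearest other array of the group had 382. On the log2(signal + 100) scale, on which this was judged, its gap made up a share of 0.858 of the range of the group. Chance gives about 1 such case in 20 groups.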

How the results depend on the processing

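No called member change turned round in direction under any alternative. Of 1776 recomputed member changes, 1762 moved by less than the residual SD of their gene and 14 by more. Many of these could not move, so the count is no measure of robustness. In this fit a log2 change does not depend on arrays of groups outside the comparison, on the eBayes trend or on the minimum signal. With each array left out in turn, members lower than control numbered 6 to 7 on day 5, 7 on day 20 and 4 to 6 on day 60. Members higher on day 60 numbered 4 to 6 against day 20, and 1 to 4 against day 5, with 1 left without day 5 C, D or E or day 60 B or D and 4 without day 60 A or E. In a fit of only both compared groups, 1 member was lower on day 60 than in controls, 3 were higher than on day 20 and 1 was higher than on day 5. With the conflicting array, on which every member lay below the lowest control array, counted as a control, 0 members were lower on day 60. With the day 60 arrays of high Actb ratio left out, 3 were higher on day 60 than on day 20. A pseudocount of 500, or the smallest change among all probe sets of a gene, left 1 member higher on day 60 than on day 5. Context genes called on day 60 against control numbered 11, and 7 at a minimum signal of 1000, 0 in a fit of both groups only, 0 with the conflicting array as a control and 24 without the high Actb arrays. Leaving out single arrays gave 1 (control A or E) to 21 (day 60 B). Context calls for day 60 against day 20 numbered 88, and 54 without the high Actb arrays. Whether the title letters pair the arrays was not settled. Of 27 pairs of the same letter, 11 had deviations correlated above 0.1 (range -0.275 to 0.348), and pairs of different letters were not compared. With the letter as a replicate block, 6, 7 and 5 members were lower than control on days 5, 20 and 60, 6 were higher on day 60 than on day 20 and 3 higher than on day 5. The cause of these shifts was not tested.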

Other observations

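The array whose title says day 5 and whose source name says day 0 control belongs to no group. On it Ltf had a signal of 335, Csn3 of 746, Wfdc18 of 1424, Tmprss2 of 769, Clca3a2 of 4048, Cldn4 of 1209, Aldh1a3 of 1759, Muc16 of 77.8 and Tspan8 of 2699.8. All 9 were below the lowest control array, and Clca3a2 was above the highest array of days 5 and 20. The mean log2 signal of the endothelial list was 12.24 on it, 12.11 to 12.34 on the day 5 arrays and 10.04 to 10.64 in controls. Itga6 had 42358 on it, 26166 to 37551 on day 5 and 7597 to 9431 in controls. Clca2 had 4659.6 on it, 1949 to 3731 on day 5 and 45.1 to 319.8 in controls. Its group was not assigned from these values.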
